A study of Mus musculus with 9 samples.

Results

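The core circadian clock was followed through 10 genes in HT-22 cells, an immortalized cell line derived from mouse hippocampus, whose RNA was read by RNA-seq as FPKM (fragments scaled to gene length and to the size of the library). The genes are Arntl, Clock, Per1, Per2, Per3, Cry1, Cry2, Nr1d1, Nr1d2 and Dbp, taken by name from the 21352 genes of the authors' table. The table lists 9 of the 10 under these symbols, and Arntl stands there as Bmal1, its current symbol, matched by its Entrez identifier 11865. There were 3 groups of 3 libraries. The first had 10 mM betaine for 4 hours before 2 mM homocysteine thiolactone (HTL) for 24 hours, the next had the same HTL exposure alone, and the controls, labelled wild type, had no treatment named in the labels. All groups were grown in the same complete medium with serum. HTL is the ring form of homocysteine that acylates protein lysines; betaine donates methyl groups and protects cells as an osmolyte. No cells given betaine alone were analysed here, so what betaine does without HTL cannot be told apart from what it does to HTL-treated cells.

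In mammalian cells the clock is a transcription loop. CLOCK and BMAL1 bind E-box sequences as a pair and switch on the Period (Per), Cryptochrome (Cry), Rev-erb (Nr1d) and Dbp genes, and PER and CRY proteins return to the nucleus and repress that pair. REV-ERB proteins in turn repress Bmal1 through an element that ROR activators share, while DBP and its relatives TEF and HLF act on D-box sequences against the repressor NFIL3. Single cells keep such rhythms in culture, but cells of a dish drift out of phase unless a stimulus such as a change of serum sets them together. Whether the cultures were set to one phase, and at what hour each was collected, is not given in the sources used here. With 1 collection time, a change in a gene's mean level and a shift of its phase cannot be told apart.

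HT-22 cells are labelled as hippocampal neuronal cells. Of 10 neuronal markers 8 are analysed here and 3 averaged at least 0.5 FPKM, with the tubulin gene Tubb3 highest at 9.52 FPKM, while Rbfox3, Mapt and Syt1 were at or near 0 in every library. These markers summed to 17.0 to 17.8 FPKM in betaine plus HTL libraries, 18.5 to 19.2 FPKM in HTL libraries and 16.3 to 17.5 FPKM in control libraries. Astrocytic Gja1 at 124.7 FPKM and fibroblast Col1a1 at 120.7 FPKM were each the highest of their list, and no oligodendrocyte or endothelial marker reached a mean of 0.5 FPKM. Of the astrocyte markers 1 of 4 analysed reached that mean, and they summed to 139.2 to 142.1, 120.1 to 122.6 and 111.3 to 114.5 FPKM in betaine plus HTL, HTL and control libraries, with Gfap near 0. Fibroblast markers, of which 2 of 5 analysed reached that mean, summed to 105.6 to 116.0, 120.4 to 127.4 and 140.8 to 144.2 FPKM in the same order, with Lum near 0. That sum is mostly Col1a1, which averaged 105.1, 117.9 and 139.2 FPKM, while Pdgfra ran the other way at 5.31, 4.97 and 2.65 FPKM. The microglial list, of which only Tmem119 reached it, summed to 5.38 to 6.32, 8.17 to 8.82 and 7.95 to 9.20 FPKM. The astrocyte and fibroblast sums were apart in all groups. Neuronal sums overlapped between betaine plus HTL and control, and microglial sums between HTL and control. The part of these sums in the clock gene results was not tested. The steps of the lowest FPKM values implied 33305000 to 39464000 fragments per library. In bulk RNA, fewer cells of a kind and less RNA per cell cannot be told apart.

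Levels of the 10 genes spanned a wide range, and FPKM allows them to be compared per gene length. Nr1d2 was highest in every group, at 24.9 FPKM in betaine plus HTL cells, 24.3 FPKM in HTL cells and 13.7 FPKM in control cells. Cry1 and Clock came next, and in control cells the ranges of these neighbours overlapped (7.08 to 7.42 and 7.18 to 7.22 FPKM). In HTL cells all Cry1 libraries lay above all Clock libraries, at 9.71 to 9.95 against 6.74 to 8.05 FPKM. Per1, Cry2, Nr1d1 and Dbp were intermediate, between 2.28 and 6.59 FPKM as group means. Per2, Per3 and Bmal1 were lowest, and their order changed. Per2 was the lowest of the 10 in control cells at 0.481 FPKM, where Bmal1 stood at 0.691 FPKM. In both HTL-treated groups Bmal1 was the lowest by FPKM. By the reads inferred from the FPKM steps, Per2 had 102 to 118 per library in control cells and 210 to 309 in the treated groups. Bmal1 had 359 to 547. These are the smallest numbers that fit, each at its own inferred length, so the order of Bmal1, Per2 and Per3 by reads is not settled. The shortest length that gave whole reads was 19266 bases for Bmal1, while its annotated exons cover 7523 bases. The FPKM rank of Bmal1 therefore depends on the gene length used.

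**Figure D1:**
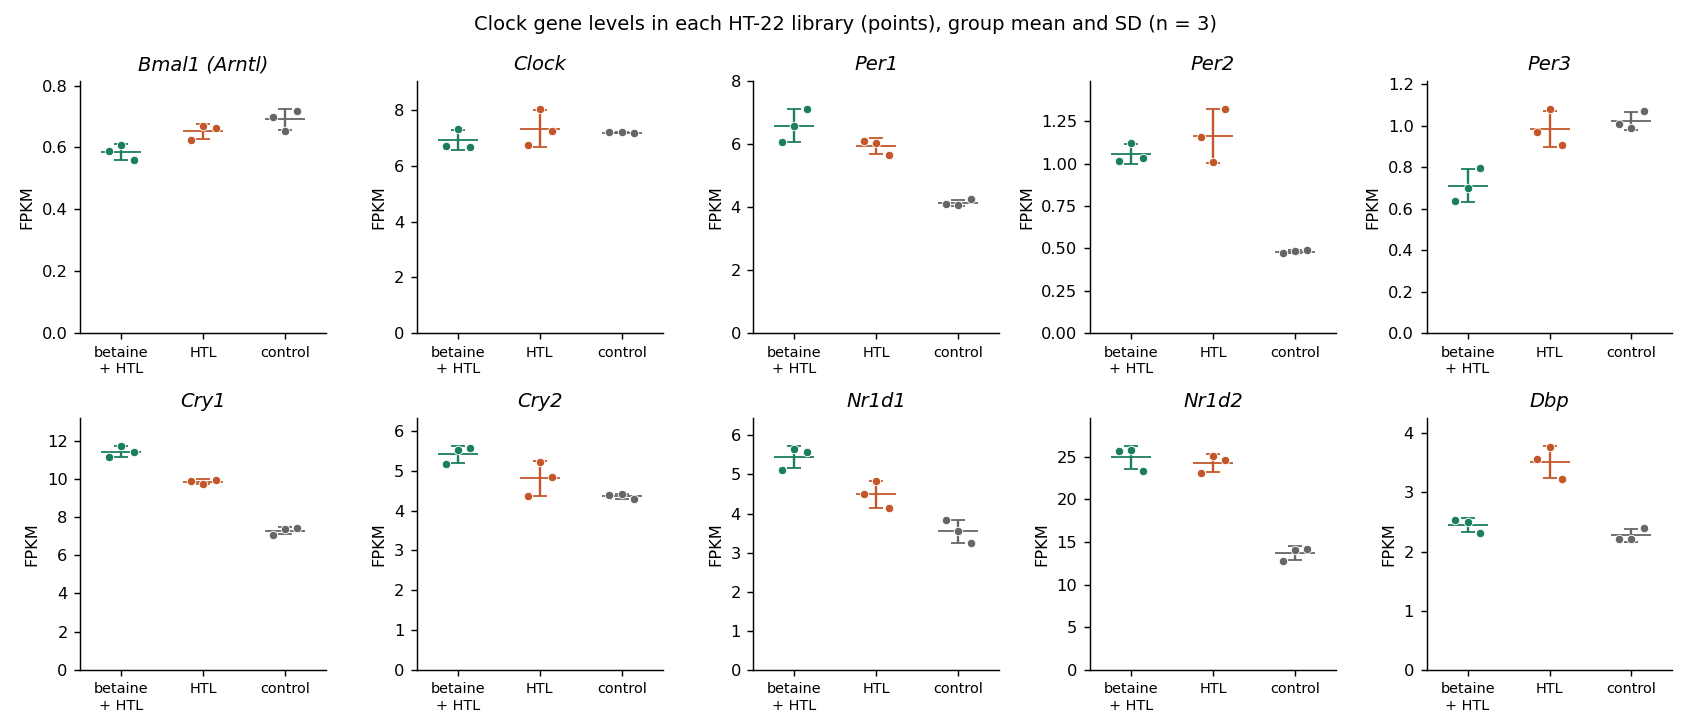
FPKM of each clock gene in betaine plus HTL, HTL and control libraries; each panel has its own linear axis from 0, points are libraries, and bars are the group mean and SD (n = 3). Per1, Per2, Cry1 and Nr1d2 sat higher in both HTL-treated groups than in control cells, Dbp was high in HTL cells alone, and Clock overlapped among all groups.

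The question behind HTL against control is the effect of the thiolactone on these cells. Most genes of the repressing limbs were higher in HTL cells, and so was the output gene Dbp. Per1, Per2, Cry1, Nr1d1, Nr1d2 and Dbp rose, by ratios of means from 1.27 for Nr1d1 to 2.42 for Per2, and none of the 10 fell. The activator genes Bmal1 and Clock, with Per3 and Cry2, did not pass the test. All 10 genes averaged at least 0.5 FPKM and were tested with limma on log2(FPKM + 1), two-sided, at a Benjamini-Hochberg adjusted p of 0.05 over 11012 genes. Calls were frequent in this comparison: 60.3% of all genes tested were called (39.8% higher and 20.4% lower), so 6 calls among 10 matches the background share, and the 6 were all rises. The median log2 fold change of the 10 genes was 0.33, beside 0.07 for all genes tested. HTL and control libraries did not overlap for 6 of the 10 genes, and for 67.2% of all genes.

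The next question is what betaine given first did to HTL-exposed cells. Cry1 and Nr1d1 rose further in betaine plus HTL cells, Dbp and Per3 fell, and the other 6, among them Per1, Per2 and Nr1d2, did not pass the test. Background calls made up 35.2% of genes tested (14.5% higher and 20.6% lower). The 2 rises and 2 falls among the 10 clock genes were near these shares. The median log2 fold change was -0.01 for the clock genes and -0.02 for all genes. The 2 sets of libraries were apart for 5 of the 10 genes and for 47.7% of all genes. Against control, betaine plus HTL cells had 6 rises (Per1, Per2, Cry1, Cry2, Nr1d1 and Nr1d2) and 1 fall (Per3), where 63.4% of genes tested were called, 37.7% higher and 25.7% lower. The median of the 10 genes was 0.37, beside 0.04 for all genes, and libraries did not overlap for 8 of the 10 genes and for 67.1% of all genes. The comparisons share libraries, so their results are not independent. Over all genes, rises made up 66.1% of the calls in HTL against control, 41.4% in betaine plus HTL against HTL and 59.5% in betaine plus HTL against control. These shares were 46.5%, 55.3% and 48.1% when libraries were rescaled by size factors, and 52.2%, 51.8% and 52.4% under quantile normalization. The 6 clock gene rises over control were called under both rescalings in HTL and in betaine plus HTL cells.

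**Figure D2:**
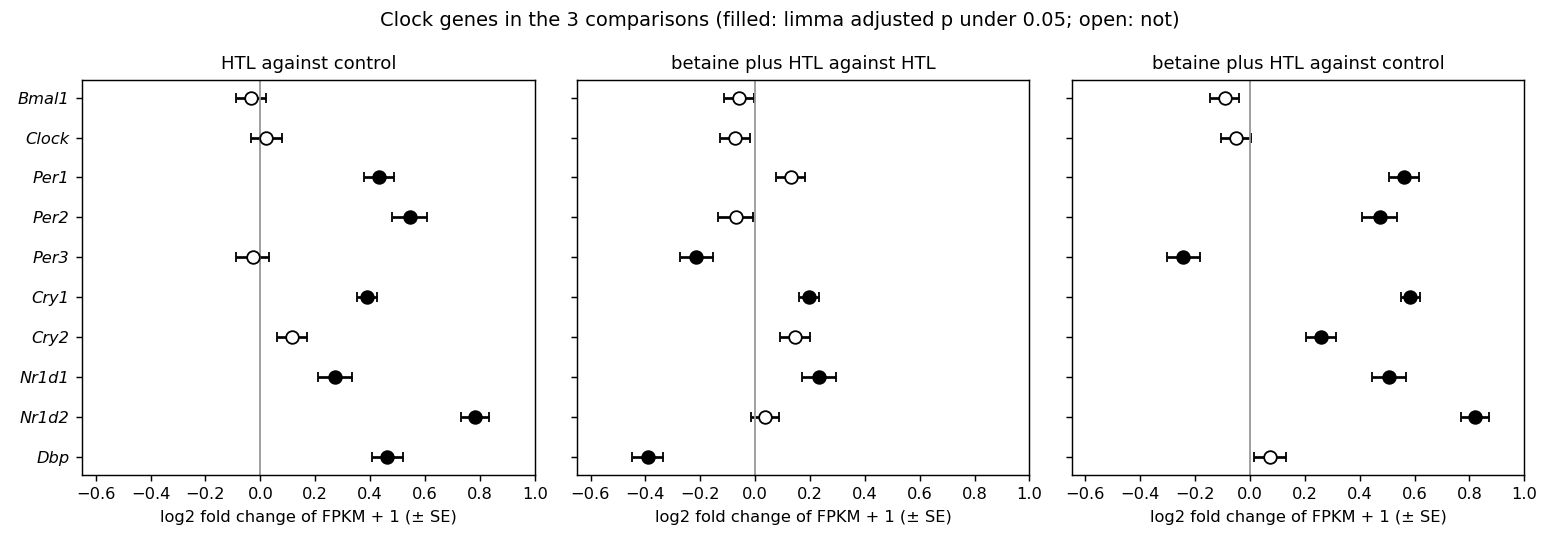
Log2 fold change on the log2(FPKM + 1) scale with its standard error for each clock gene in HTL against control, betaine plus HTL against HTL, and betaine plus HTL against control. Filled points passed limma's adjusted p of 0.05; Dbp lies to the right of 0 in the first panel, to the left in the second and close to 0 (0.07) in the third, while Cry1 and Nr1d1 lie to the right in all 3.

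The promoters of 6 of the genes are shown because these genes passed the test in most comparisons; all passed in at least 2 of 3, as did Per2, which has no window in the RefSeq table used. Each is the window from 250 bases before to 50 bases after an annotated RefSeq start in GRCm38.p6, 5′ to 3′ on the gene's own strand, the first listed where a gene has several. Capitals mark matches to the E-box CACGTG, its variant CACGTT, the D-box as TTATGTAA or TTACGTAA, the core TAGGTCA of the ROR and REV-ERB element, and the CRE TGACGTCA, all searched on both strands.
Per1, chr11:69098699-69098998, plus strand: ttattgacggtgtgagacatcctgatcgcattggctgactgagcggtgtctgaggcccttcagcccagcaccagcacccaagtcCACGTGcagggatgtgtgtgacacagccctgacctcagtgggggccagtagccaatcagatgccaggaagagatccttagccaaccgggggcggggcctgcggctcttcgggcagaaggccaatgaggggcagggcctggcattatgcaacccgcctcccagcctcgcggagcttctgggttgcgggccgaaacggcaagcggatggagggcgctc
Per3, chr4:151044616-151044915, minus strand: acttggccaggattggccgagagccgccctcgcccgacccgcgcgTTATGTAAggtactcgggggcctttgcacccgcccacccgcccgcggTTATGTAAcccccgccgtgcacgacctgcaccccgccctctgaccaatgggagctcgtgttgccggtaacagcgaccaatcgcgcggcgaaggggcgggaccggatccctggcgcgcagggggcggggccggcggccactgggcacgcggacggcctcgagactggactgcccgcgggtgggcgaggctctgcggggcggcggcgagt
Cry1, chr10:85185005-85185304, minus strand: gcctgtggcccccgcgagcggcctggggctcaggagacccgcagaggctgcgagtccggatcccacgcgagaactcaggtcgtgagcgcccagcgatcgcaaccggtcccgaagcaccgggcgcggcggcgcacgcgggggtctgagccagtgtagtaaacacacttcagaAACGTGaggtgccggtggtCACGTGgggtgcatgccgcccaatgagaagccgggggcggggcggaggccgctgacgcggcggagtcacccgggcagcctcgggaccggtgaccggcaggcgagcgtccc
Nr1d1, chr11:98775328-98775627, minus strand: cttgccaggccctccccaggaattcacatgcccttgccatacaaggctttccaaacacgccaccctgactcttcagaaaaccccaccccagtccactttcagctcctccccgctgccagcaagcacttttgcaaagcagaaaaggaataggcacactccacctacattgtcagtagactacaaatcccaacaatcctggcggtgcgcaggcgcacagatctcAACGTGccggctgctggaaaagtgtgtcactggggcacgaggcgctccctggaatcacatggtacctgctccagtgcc
Nr1d2, chr14:18239057-18239356, minus strand: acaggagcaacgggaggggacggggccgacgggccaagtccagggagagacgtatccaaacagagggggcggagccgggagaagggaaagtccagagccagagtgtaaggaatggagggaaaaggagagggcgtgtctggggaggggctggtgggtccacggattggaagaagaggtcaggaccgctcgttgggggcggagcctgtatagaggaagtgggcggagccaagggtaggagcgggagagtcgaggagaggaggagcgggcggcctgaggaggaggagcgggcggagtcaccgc
Dbp, chr7:45704997-45705296, plus strand: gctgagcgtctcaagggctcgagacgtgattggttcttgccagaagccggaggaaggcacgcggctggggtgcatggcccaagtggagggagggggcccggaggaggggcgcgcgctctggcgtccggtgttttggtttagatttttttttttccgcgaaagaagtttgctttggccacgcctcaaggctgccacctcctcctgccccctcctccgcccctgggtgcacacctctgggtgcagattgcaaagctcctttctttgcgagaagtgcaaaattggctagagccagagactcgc
The Per1 window holds an E-box that begins 166 bases before the RefSeq start used. This window lies wholly inside the annotated Per1 gene, which begins at chr11:69095217, so it is not the 5′ end of that gene. Cry1 holds an E-box 60 bases before the start and the variant, on the other strand, 79 bases before it. Nr1d1 holds the variant on the other strand at 28 bases. Per3 holds a pair of D-boxes at 205 and 158 bases and no E-box, and the windows of Nr1d2 and Dbp hold none of the motifs. Of all 32851 RefSeq promoter windows of this length, 7.15% hold the E-box, 4.68% its variant, 1.06% a D-box, 2.61% the ROR and REV-ERB core and 1.79% the CRE. Among the other clock genes with windows, Cry2 holds the variant, 1 of the Arntl windows holds the ROR and REV-ERB core, and Clock holds none of the motifs. A match describes the letters only, and a window without one says nothing of elements elsewhere in the gene.

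Bmal1 (Arntl, chr7:113207465-113314126, plus strand, GRCm38) encodes the partner of CLOCK, the one clock gene whose loss alone stops behavioural rhythms of mice in constant darkness. It stood at 0.589, 0.609 and 0.559 FPKM in betaine plus HTL libraries, 0.625, 0.671 and 0.662 FPKM in HTL libraries, and 0.699, 0.654 and 0.719 FPKM in control libraries. The betaine plus HTL libraries lay below all others, while HTL and control overlapped. None of the comparisons passed: the log2 fold change was -0.03 for HTL against control (adjusted p = 0.62, limma), -0.06 for betaine plus HTL against HTL (0.422) and -0.09 for betaine plus HTL against control (0.158). The last became a call under quantile normalization (adjusted p = 0.0312), with no filter (0.0308) and with no intensity trend (0.0226), and the adjusted p ran from 0.0226 to 0.31 across settings.

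Clock (chr5:76209868-76304792, minus strand) encodes the partner of BMAL1 in the activator. Its values were 6.73, 7.34 and 6.69 FPKM in betaine plus HTL libraries, 6.74, 8.05 and 7.25 FPKM in HTL libraries, and 7.22, 7.21 and 7.18 FPKM in control libraries. Control libraries lay close together inside the range of both treated groups, and HTL replicate 2 was the highest. No comparison passed, with limma adjusted p of 0.751, 0.332 and 0.443 for HTL against control, betaine plus HTL against HTL, and betaine plus HTL against control.

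The Period genes encode the repressors whose phosphorylation and decay set the pace of the loop, and Per1 and Per2 are also induced directly by serum, cAMP and glucocorticoid signals. Per1 (chr11:69095217-69109960, plus strand) had 6.07, 6.59 and 7.11 FPKM in betaine plus HTL libraries, 6.11, 6.03 and 5.65 FPKM in HTL libraries, and 4.09, 4.06 and 4.25 FPKM in control libraries. Both treated groups lay above every control library and overlapped each other. Per1 rose in HTL cells (ratio of means 1.44, log2 fold change 0.43 ± 0.05 SE, limma adjusted p = 4.04e-05). It also rose in betaine plus HTL cells against control (1.59, 0.56 ± 0.05, 4.27e-06). Against HTL, betaine plus HTL gave 0.13 ± 0.05 (adjusted p = 0.0816), which became a call under size factors (0.0374) and without betaine plus HTL replicate 1 (0.0232), and the adjusted p ran from 0.0232 to 0.264 across settings.

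Per2 (chr1:91415982-91459324, minus strand) had 1.01, 1.123 and 1.03 FPKM in betaine plus HTL libraries, 1.16, 1.01 and 1.32 FPKM in HTL libraries, and 0.471, 0.481 and 0.490 FPKM in control libraries. Every treated library was above every control library by a wide gap, and the treated groups overlapped. Per2 had the largest ratio of means of the 10 genes, 2.42 for HTL against control and 2.20 for betaine plus HTL against control. On the log2(FPKM + 1) scale this was 0.54 ± 0.06 SE (limma adjusted p = 2.68e-05) and 0.47 ± 0.06 (6.11e-05), and 1.11 and 0.99 with a pseudocount of 0.1, since a pseudocount of 1 shrinks changes of low genes. The comparison of betaine plus HTL with HTL did not pass (-0.07 ± 0.06, adjusted p = 0.414).

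Per3 (chr4:151003652-151044665, minus strand), a paralogue that is dispensable for the core loop in mice, went the other way. It had 0.636, 0.700 and 0.794 FPKM in betaine plus HTL libraries, 0.968, 1.08 and 0.906 FPKM in HTL libraries, and 1.01, 0.991 and 1.07 FPKM in control libraries. The betaine plus HTL libraries lay below all others, and HTL overlapped control. Per3 fell in betaine plus HTL cells against HTL (ratio of means 0.72, log2 fold change -0.22 ± 0.06 SE, limma adjusted p = 0.0175), as it did against control (0.69, -0.24 ± 0.06, 0.00426), while HTL against control gave -0.03 (0.705). With a pseudocount of 0.1 these falls were -0.42 and -0.48. The call against HTL was lost without HTL replicate 2 (adjusted p = 0.0674) or betaine plus HTL replicate 1 (0.0591), and the adjusted p ran from 0.00599 to 0.0674 across settings. Reads behind Per3 numbered 170 to 288 per library.

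Cryptochromes are the strongest repressors of CLOCK and BMAL1. Cry1 (chr10:85131700-85185064, minus strand) had 11.2, 11.7 and 11.4 FPKM in betaine plus HTL libraries, 9.91, 9.71 and 9.95 FPKM in HTL libraries, and 7.08, 7.37 and 7.42 FPKM in control libraries. The 3 groups formed 3 separate ranges, with betaine plus HTL highest and control lowest. Cry1 rose in HTL cells against control (ratio of means 1.35, log2 fold change 0.39 ± 0.04 SE, limma adjusted p = 4.06e-06), rose again in betaine plus HTL against HTL (1.16, 0.20 ± 0.04, 0.0016), and rose by 0.58 on the log2 scale in betaine plus HTL against control (ratio 1.57, 1.28e-07). It passed in all 3 comparisons under each of the 17 other settings tried.

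Cry2 (chr2:92403646-92434043, minus strand) had 5.17, 5.52 and 5.57 FPKM in betaine plus HTL libraries, 4.36, 5.23 and 4.85 FPKM in HTL libraries, and 4.39, 4.41 and 4.29 FPKM in control libraries. Betaine plus HTL lay above control in every library, and the HTL libraries, which ranged widely, overlapped both. Cry2 rose in betaine plus HTL cells against control (ratio of means 1.24, log2 fold change 0.26 ± 0.06 SE, limma adjusted p = 0.00169). HTL against control gave 0.11 (adjusted p = 0.0952), and 0.17 without HTL replicate 1 (0.0158; 0.0158 to 0.656 across settings). Against HTL, betaine plus HTL gave 0.14 (0.0635), and passed without HTL replicate 2 (0.0233), under size factors (0.0284) and under quantile normalization (0.0289), and the adjusted p ran from 0.0233 to 0.222 across settings.

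REV-ERB alpha and beta, encoded by Nr1d1 and Nr1d2, are haem-binding nuclear receptors that repress Bmal1. Nr1d2 (chr14:18204054-18239127, minus strand) had 25.6, 25.8 and 23.3 FPKM in betaine plus HTL libraries, 23.1, 25.1 and 24.7 FPKM in HTL libraries, and 12.7, 14.1 and 14.2 FPKM in control libraries. The treated groups overlapped each other and stood far above control. On the log2(FPKM + 1) scale Nr1d2 had the largest fold change of the 10 genes in both comparisons with control, 0.78 ± 0.05 SE for HTL (ratio of means 1.77, limma adjusted p = 3.5e-07) and 0.82 ± 0.05 for betaine plus HTL (1.82, 1.63e-07). With a pseudocount of 0.1 its values were 0.82 and 0.86, below those of Per2. Counted from the largest rise at a pseudocount of 1, it ranked 52 and 73 among all 11012 genes. The 2 treated groups differed by 0.04 (0.625).

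Nr1d1 (chr11:98767932-98775333, minus strand) had 5.12, 5.65 and 5.57 FPKM in betaine plus HTL libraries, 4.51, 4.82 and 4.13 FPKM in HTL libraries, and 3.82, 3.54 and 3.25 FPKM in control libraries. As for Cry1, the 3 groups did not overlap and betaine plus HTL was highest. Nr1d1 rose in HTL against control (ratio of means 1.27, log2 fold change 0.27 ± 0.06 SE, limma adjusted p = 0.00278), in betaine plus HTL against HTL (1.21, 0.23 ± 0.06, 0.0135) and in betaine plus HTL against control (1.54, 0.51 ± 0.06, 3.02e-05). The rise over HTL was lost without HTL replicate 3 (adjusted p = 0.0572) and with no filter on low genes (0.0535), and the adjusted p ran from 0.0079 to 0.0572 across settings.

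Nr1d1 shares 263 of its 3077 annotated exon bases with Thra, a thyroid hormone receptor gene on the opposite strand. Thra stood at 9.13 ± 0.44 FPKM in betaine plus HTL cells, 10.2 ± 0.51 FPKM in HTL cells and 6.68 ± 0.14 FPKM in control cells (SD, n = 3 each). Thra rose in HTL against control, as Nr1d1 did, and fell in betaine plus HTL against HTL (limma adjusted p = 0.0241), where Nr1d1 rose. Whether the counting used strand is not given in the sources used here, so reads of the shared stretch may belong to either gene, and its part in the Nr1d1 values was not tested. The same holds for Cry2, which shares 295 of 6320 exon bases with D930015M05Rik, for Arntl, which shares 33 of 7523 with Gm45355, and for Tef, which shares 193 of 7867 with Gm17597.

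Dbp (chr7:45705088-45710203, plus strand) encodes the D-box activator and is a direct E-box target of CLOCK and BMAL1. It had 2.53, 2.497 and 2.31 FPKM in betaine plus HTL libraries, 3.57, 3.76 and 3.23 FPKM in HTL libraries, and 2.21, 2.21 and 2.40 FPKM in control libraries. HTL libraries lay above all others, and betaine plus HTL overlapped control. Dbp rose in HTL against control (ratio of means 1.55, log2 fold change 0.46 ± 0.06 SE, limma adjusted p = 3.75e-05), but fell in betaine plus HTL against HTL (0.69, -0.39 ± 0.06, 0.00039), under each of the 16 settings that kept the gene. Set against control, betaine plus HTL gave 0.07 ± 0.06 (0.283). Dbp shares 539 of 2993 annotated exon bases with Sphk2 on the opposite strand. Sphk2 was at 7.20 ± 0.70, 7.51 ± 0.64 and 6.55 ± 0.05 FPKM in betaine plus HTL, HTL and control cells (SD, n = 3 each), and it rose in HTL against control (0.17, limma adjusted p = 0.0405), as Dbp did. Its values for betaine plus HTL were -0.05 against HTL (0.551) and 0.12 against control (0.138). The part of the shared stretch in the Dbp values was not tested.

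The relatives of Dbp showed a like order of groups. Tef, which encodes another D-box activator, had 11.6, 12.5 and 12.02 FPKM in betaine plus HTL libraries, 13.9, 13.1 and 13.3 FPKM in HTL libraries, and 8.23, 7.61 and 8.02 FPKM in control libraries. All 3 ranges were separate, with HTL highest and control lowest. Hlf, the remaining member of this activator family, had 3.26, 2.98 and 3.40 FPKM in betaine plus HTL libraries, 5.40, 5.33 and 5.81 FPKM in HTL libraries, and 2.56, 2.43 and 2.70 FPKM in control libraries. Its HTL libraries stood far above both other groups, which did not overlap each other. HTL against control gave a rise of 0.69 ± 0.04 SE for Tef (ratio of means 1.69, limma adjusted p = 2.07e-07) and of 0.87 ± 0.05 for Hlf (2.15, 2.53e-07). Betaine plus HTL against HTL gave a fall of Hlf (-0.63 ± 0.05, ratio 0.58, 9.98e-06) and a small fall of Tef (-0.15 ± 0.04, ratio 0.90, 0.0176). Tef no longer passed this comparison with size factors (adjusted p = 0.0537) or when HTL replicate 1 (0.0685) or betaine plus HTL replicate 1 (0.061) was left out, and the adjusted p ran from 0.0142 to 0.0685 across settings. Against control, Tef stayed higher in betaine plus HTL cells (ratio 1.51, 8.47e-07), and so did Hlf (1.25, 0.00226).

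Nfil3, the repressor that competes for D-boxes, was at 11.8 ± 0.93 FPKM in betaine plus HTL cells, 11.8 ± 0.18 FPKM in HTL cells and 10.9 ± 0.43 FPKM in control cells (SD, n = 3 each). It passed in no comparison, with limma adjusted p of 0.11 for HTL against control, 0.973 for betaine plus HTL against HTL and 0.0986 for betaine plus HTL against control. HTL against control became a call with only those groups in the fit (0.0436) and without betaine plus HTL replicate 3 (0.046), and the adjusted p ran from 0.0436 to 0.776 across settings. Betaine plus HTL against control became a call without betaine plus HTL replicate 1 (0.021), and the adjusted p ran from 0.021 to 0.41 across settings.

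**Figure D3:**
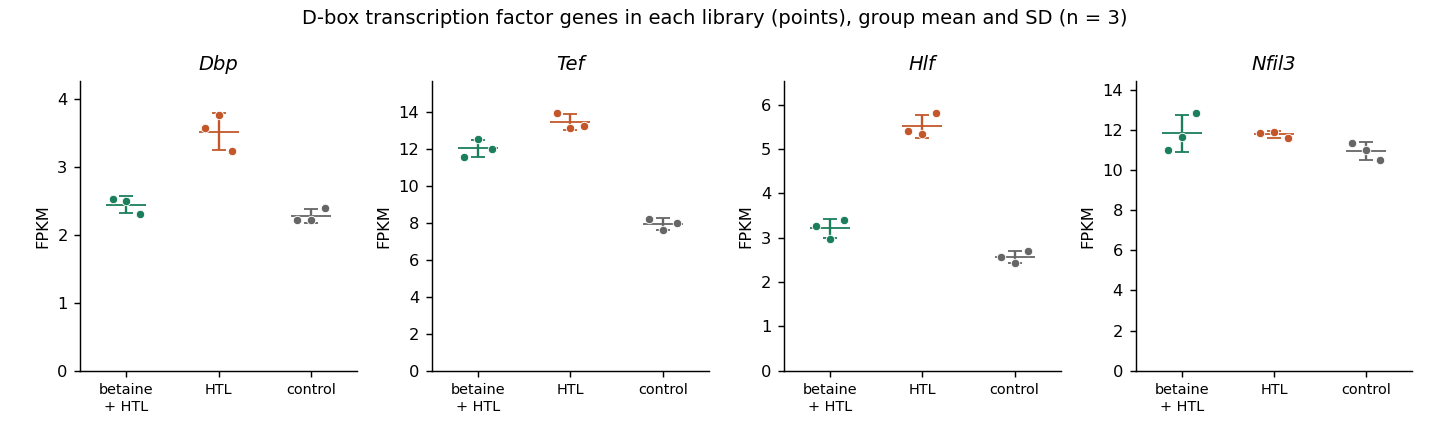
FPKM of the D-box activator genes Dbp, Tef and Hlf and of the D-box repressor gene Nfil3 in betaine plus HTL, HTL and control libraries; points are libraries, bars the group mean and SD (n = 3), and axes are linear from 0. The activators are highest in HTL libraries, with Hlf at 5.33 to 5.81 FPKM there, and Nfil3 groups lie close together.

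Other regulators of the loops, mostly transcription factors, were read from a list of 12 genes, Tef, Hlf and Nfil3 among them. Of these, 9 were expressed enough to test. Timeless, which encodes no transcription factor, is on the list and among its rises over control in both comparisons. In HTL against control 5 rose and 1 fell, in betaine plus HTL against HTL 1 rose and 2 fell, and in betaine plus HTL against control 6 rose and 1 fell. Over all genes tested 60.3%, 35.2% and 63.4% were called in these comparisons. The list's median log2 fold changes were 0.16, -0.03 and 0.13, beside 0.07, -0.02 and 0.04 for all genes. The gene that fell in both comparisons with control was Bmal2 (Arntl2), a paralogue of Bmal1, with 0.888, 0.955 and 0.808 FPKM in betaine plus HTL libraries, 1.28, 0.921 and 1.08 FPKM in HTL libraries, and 1.75, 1.71 and 1.71 FPKM in control libraries. Both treated groups lay below every control library. Bmal2 fell by 0.38 ± 0.07 SE on the log2 scale in HTL against control (ratio of means 0.63, limma adjusted p = 0.000519) and by 0.53 ± 0.07 in betaine plus HTL against control (0.51, 3.85e-05). Against HTL, betaine plus HTL gave -0.15 (0.107), and -0.21 without HTL replicate 2 (0.0394; 0.0394 to 0.34 across settings).

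Rora and Rorb, whose products activate through the element that REV-ERB represses, were at or near 0 FPKM, with 2 to 14 inferred reads per library for Rorb. Npas2, which can replace Clock in the forebrain of mice, had 0 to 11 inferred reads per library. These read numbers are the smallest that fit the FPKM values. The single higher library of Npas2 was HTL replicate 2, and 4 of the 9 libraries had at least 1 read.

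The E-box repressor genes Bhlhe40 and Bhlhe41 had log2 fold changes of at most 0.22. Bhlhe40 was at 21.4 ± 0.11 FPKM in betaine plus HTL cells, 20.3 ± 0.31 FPKM in HTL cells and 19.5 ± 0.49 FPKM in control cells (SD, n = 3 each), and rose in betaine plus HTL against control (limma adjusted p = 0.00251), a call lost under size factors (0.0564; 0.00216 to 0.0564 across settings). Against HTL, betaine plus HTL gave 0.07 for it (0.0852), which became a call under size factors (0.0288) and quantile normalization (0.0314), and the adjusted p ran from 0.0288 to 0.198 across settings. Bhlhe41 was at 3.77 ± 0.18, 3.60 ± 0.13 and 3.11 ± 0.20 FPKM in betaine plus HTL, HTL and control cells, and rose in both comparisons with control (0.0035 and, for HTL, 0.0185). The HTL call was lost under size factors (0.13), under quantile normalization (0.256), and without control replicate 3 (0.0816), HTL replicate 2 (0.0555) or HTL replicate 3 (0.0605), and the adjusted p ran from 0.0115 to 0.256 across settings. Ciart, a repressor of CLOCK and BMAL1, was at 4.51 ± 0.27, 4.64 ± 0.31 and 4.80 ± 0.27 FPKM in the same order and passed in none (limma adjusted p from 0.27 to 0.688). Under quantile normalization betaine plus HTL against control became a call for Ciart (0.0394; 0.0394 to 0.629 across settings).

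PER and CRY proteins are timed by kinases and ubiquitin ligases, and 16 of 18 listed genes of this kind were tested. In HTL against control 8 rose and 3 fell, in betaine plus HTL against HTL 3 rose and 2 fell, and in betaine plus HTL against control 8 rose and 1 fell. Of all genes, 39.8% rose and 20.4% fell in the first of these, 14.5% and 20.6% in the second, and 37.7% and 25.7% in the third. The medians were 0.10, 0.03 and 0.08, beside 0.07, -0.02 and 0.04 for all genes. Csnk1d, the casein kinase that phosphorylates PER, was at 59.8 ± 1.02, 57.6 ± 1.65 and 43.6 ± 1.53 FPKM in betaine plus HTL, HTL and control cells (SD, n = 3 each). Its paralogue Csnk1e was at 17.0 ± 1.10, 14.6 ± 0.52 and 10.7 ± 0.51 FPKM in the same order and also rose in betaine plus HTL against HTL by a ratio of 1.17 (limma adjusted p = 0.00687). Sirt1, a deacetylase that acts on PER2 and BMAL1, was at 9.39 ± 0.54, 10.1 ± 0.71 and 7.09 ± 0.20 FPKM. Csnk1d, Csnk1e and Sirt1 rose in both comparisons with control. Prkaa1, a catalytic subunit of the AMP-activated kinase that marks CRY1, fell in betaine plus HTL against HTL, at 18.6 ± 0.53 and 20.8 ± 0.55 FPKM (0.00351), and so did the deubiquitinase gene Usp7, at 40.6 ± 0.62 and 43.6 ± 0.36 FPKM (0.0154). The call for Usp7 was lost under size factors (0.106).

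**Figure D4:**
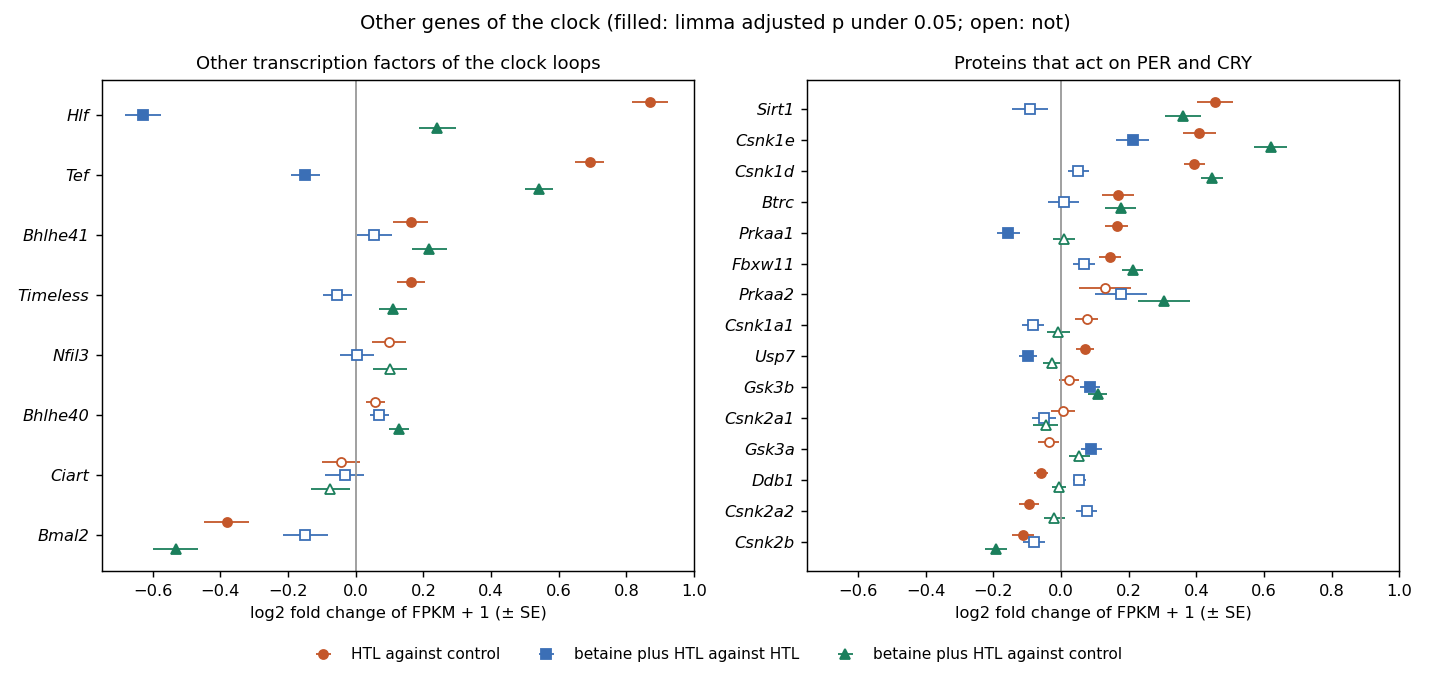
Log2 fold change on the log2(FPKM + 1) scale with its standard error, in the 3 comparisons. Shown are other regulators of the clock loops, mostly transcription factor genes but also Timeless, and genes whose products act on PER and CRY. Filled symbols passed limma's adjusted p of 0.05. Among the loop regulators Hlf and Tef stand farthest right in HTL against control and lie left of 0 in betaine plus HTL against HTL, and Bmal2 lies left of 0 in all 3.

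The deposited annotation assigns 34 genes to the circadian rhythm pathway, all 10 clock genes included. Of its other 24 genes 19 were tested, and 12 rose and 1 fell in HTL against control, 3 rose and 4 fell in betaine plus HTL against HTL, and 11 rose and 1 fell in betaine plus HTL against control. Rises made up 39.8%, 14.5% and 37.7% of all genes tested, and falls 20.4%, 20.6% and 25.7%. The median log2 fold changes were 0.16, 0.05 and 0.13 for these 19 genes, beside 0.07, -0.02 and 0.04 for all genes. Only the 10 clock genes were taken out, so genes of the other lists may be counted here again.

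Of 12 genes known as clock outputs 9 were tested. In HTL against control 5 rose and 2 fell, in betaine plus HTL against HTL 4 rose and 2 fell, and in betaine plus HTL against control 6 rose and 2 fell, where 60.3%, 35.2% and 63.4% of all genes were called. The medians were 0.17, 0.06 and 0.14, beside 0.07, -0.02 and 0.04 for all genes. Tspan4, rhythmic in many mouse organs, had 48.9 ± 0.85 FPKM in betaine plus HTL cells, 61.5 ± 0.71 FPKM in HTL cells and 54.2 ± 1.44 FPKM in control cells (SD, n = 3 each). It rose in HTL cells against control (limma adjusted p = 0.000168) and fell in betaine plus HTL cells against HTL (7.25e-06) and against control (0.000628). Pdk4, a kinase gene of fuel choice, rose in HTL cells (6.16 ± 0.20 against 4.26 ± 0.51 FPKM in control, 0.000105). Nampt, which makes the NAD precursor of sirtuins, fell in HTL cells (20.2 ± 0.63 against 24.5 ± 0.86 FPKM, 0.000206). Dtx4 and Klf10 rose in betaine plus HTL against HTL, at 14.9 ± 0.35 against 10.6 ± 0.35 FPKM (1.14e-05) and at 16.4 ± 0.27 against 13.4 ± 0.18 FPKM (7.1e-05). Tsc22d3, a glucocorticoid-induced gene, rose in betaine plus HTL against control, at 6.74 ± 0.40 against 5.27 ± 0.17 FPKM (0.000175).

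Genes that share inducers with Per1, such as cAMP, serum and glucocorticoids, did not move as one. Of 12 listed, 10 were tested, with 4 rises and 2 falls in HTL against control, 2 rises and 3 falls in betaine plus HTL against HTL, and 5 rises and 3 falls in betaine plus HTL against control. The share of all genes called was 60.3%, 35.2% and 63.4%. The medians were 0.01, -0.04 and 0.09, beside 0.07, -0.02 and 0.04 for all genes. Sik1, a cAMP-induced kinase, had 7.83 ± 0.41 FPKM in betaine plus HTL cells, 7.01 ± 0.23 FPKM in HTL cells and 4.41 ± 0.28 FPKM in control cells (SD, n = 3 each), and rose in both comparisons with control (limma adjusted p = 4.81e-07 and, for HTL, 3.59e-06). Sgk1, a serum and glucocorticoid induced kinase, was at 26.9 ± 0.62, 30.5 ± 0.72 and 22.1 ± 0.20 FPKM in the same order, a rise in HTL cells (3.7e-07) and a fall in betaine plus HTL against HTL (0.00103). Egr1, an immediate early gene, had 1.496 ± 0.17, 3.80 ± 0.26 and 7.98 ± 0.32 FPKM in betaine plus HTL, HTL and control cells and fell in all 3 comparisons (1.03e-06 against HTL, 9.01e-10 against control and 4.29e-07 for HTL against control). Klf9, a glucocorticoid and clock responsive factor, rose in betaine plus HTL against HTL, at 11.8 ± 0.52 against 8.49 ± 0.42 FPKM (5.18e-05), and fell in HTL against control, where control stood at 10.6 ± 0.48 FPKM (0.000272).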

How the data were processed

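The 9 HT-22 libraries, 3 a group, came as 1 table of FPKM per gene, the unit the authors deposited. The submitters' processing notes name fastp, HISAT2, HTSeq, R 3.2.0 and build mm10 without their roles; counting options are not stated there. Genes averaging at least 0.5 FPKM were tested on log2(FPKM + 1), which understates changes of low genes, with limma 3.58.1 in R 4.3.3 (all 9 libraries, intensity trend, 6 residual degrees of freedom), tested on simulated data first. An exact permutation test of 3 against 3 cannot go below p = 0.1. Since nothing tells whether libraries of a group were separate cultures, the p-values cover variation among libraries that may be technical only. Read numbers were inferred from FPKM steps, taking the shortest gene length that gave whole reads within 0.05, so they are the smallest that fit. The clock genes and lists were chosen with earlier results of these data known, and no list was tested. Named genes are the 10 clock genes, 9 set loop factors and the 3 smallest p per further list and comparison; promoters shown are of the 6 genes called most often. Coordinates follow GENCODE M21 (GRCm38), promoters RefSeq (GRCm38.p6; 9 of 10 genes matched). Some genes of the lists enter the counts but are not reported here by name. Alternatives changed the pseudocount, filter, scaling, trend, groups fitted, replicate block and each library.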

Additional observations from a re-analysis of the deposited data

How the results depend on the processing

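Under 17 other settings, 475 recomputed values of the 10 clock genes kept their direction and side of the threshold, 9 gained a call, 4 lost one and 4 changed sign; genes below a mean of 5 FPKM could not be tested at that filter. Clock in HTL against control changed sign under size factors (-0.06), under quantile normalization (-0.07) and without HTL replicate 2, with -0.04 to 0.07 over the left-out libraries. Per3 in HTL against control ran from -0.06 to 0.0007 over the left-out libraries, Ciart from -0.07 to 0.0047, and Nfil3 in betaine plus HTL against HTL from -0.05 to 0.05. Bhlhe40 in HTL against control turned to -0.03 under size factors and -0.002 under quantile normalization. These genes had not passed the test. The cause was not tested. Calls over all genes numbered 6639, 3871 and 6981 in HTL against control, betaine plus HTL against HTL, and betaine plus HTL against control, and stayed within 1.5 times under every setting.

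Libraries with the same replicate number did not deviate together (correlations from -0.0729 to 0.0592 over 9 pairs). This gave no sign of pairing by number, but deviations from means of 3 libraries cannot exclude it. With the replicate block, calls numbered 6532, 3690 and 6920, and no clock gene changed its call. Precision is limited for Per2 and Per3, whose reads ran from 102 to 309 and from 170 to 288 per library, counting error only.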
